A study of Mus musculus with 6 samples.

Results

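The genes described here are the matrix metalloproteases (MMPs), the ADAM and ADAMTS proteases and the tissue inhibitors of metalloproteases (TIMPs) in endothelial-enriched RNA of mouse carotid arteries. They were picked by family name in the gene symbol, a rule that uses no measured value, and comprised 74 genes on 148 probes, out of 19057 named genes and 45281 probes on the array. The 74 genes were 21 MMPs (37 probes), 4 TIMPs (7 probes), 32 ADAMs (65 probes) and 17 ADAMTSs (39 probes). All samples came from wild-type C57Bl/6J mice, and the labels give neither age nor how the flow was changed. The arterial flow was stable for 3 arrays and disturbed for 3, by their descriptions. Whether each sample was a separate animal or a pool is not stated, nor whether arrays of the different groups came from the same mice. The p-values rest on the scatter among the arrays of a group, which could be technical.

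MMPs are zinc-dependent endopeptidases that are secreted or held at the cell surface and cleave collagens, elastin and other matrix proteins. ADAMs are membrane-anchored proteases best known for shedding the extracellular parts of cytokines, growth factors and receptors, while ADAMTS enzymes are secreted and act on proteoglycans, procollagens and von Willebrand factor. TIMPs occupy the catalytic site of MMPs, and TIMP-3 also inhibits several ADAM and ADAMTS enzymes. In arteries these families are known for remodelling the elastic and collagenous wall when flow or pressure changes.

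The deposited sources disagree about the groups. Each of the 6 columns of the authors' processed table had the same rank order as 1 scanned array, and in 6 of 6 cases that array is described as the other group. Differences below take the disturbed flow arrays, as described, minus the stable flow arrays, and every sign would turn if the processed table's column names were right. The stable flow arrays shared 1 slide and the disturbed flow arrays another, which means that slide and flow cannot be told apart. Probes above background made up 9.74% of stable flow replicate 2, against 19.6% to 35.0% of the other 5 arrays. Stable flow replicate 2 also took part in the 5 lowest of the pairwise array correlations, the lowest of which was 0.57. Its log2 scanned signals of tested probes had an interquartile range of 0.14, against 0.30 to 0.93 on the other arrays. Quantile normalization, used below, gives all arrays the same spread over all probes. Signals of stable flow replicate 2 that lay close together are thus drawn apart, and its high normalized values can rest on low scanned signals. The same holds for disturbed flow replicate 3, whose range of 0.30 was the next narrowest. After normalization the median of the tested probes was still 4.67 on stable flow replicate 2, against 5.32 to 5.37 on the other arrays. Of 10 endothelial markers 9 were tested, and their summed intensity was 2674 to 4134 under stable flow and 2953 to 4231 under disturbed flow. Markers of other cells were present too. Tested were 4 of 7 smooth muscle markers, 5 of 7 fibroblast markers, 2 of 8 macrophage markers on the array, 1 of 5 neutrophil markers, 1 of 4 adipocyte markers and 1 of 4 platelet and red cell markers, and 0 of the lymphocyte, Schwann cell and skeletal muscle markers.

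Few of these proteases gave a signal above the array's negative controls, while the TIMPs mostly did. A probe was counted as detected on an array when its detection p was under 0.05, which 5% of probes without any signal meet, or 7.4 of the 148 probes. A gene was tested when at least 1 of its probes was detected on 3 or more of the 6 arrays. By this rule 18 of the 74 genes were tested, on 29 probes. They were 5 of 21 MMPs, 3 of 4 TIMPs, 5 of 32 ADAMs and 5 of 17 ADAMTSs. For a further 21 genes the best probe was detected on 1 or 2 arrays, and 35 genes had no detected probe. In probes, 18.9% of the MMP set, 85.7% of the TIMP set, 13.8% of the ADAM set and 17.9% of the ADAMTS set were tested, against 27.7% of all probes. Detection of at least 1 probe on all 6 arrays was seen for 6 genes, namely Mmp1a, Timp2, Timp3, Adam10, Adam15 and Adamts1.

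Detection varied between the arrays of each group. Of the 148 probes, 37, 14 and 26 were detected on the stable flow arrays (replicates 1, 2 and 3, the order used throughout), and 41, 36 and 28 on those of disturbed flow, so the groups overlapped. Over all probes of the array, 35.0%, 9.74% and 24.6% were detected on the stable flow arrays and 34.7%, 29.7% and 19.6% on those of disturbed flow. Among the 37 MMP probes the counts were 10, 2 and 4 under stable flow and 14, 8 and 8 under disturbed flow. The mean number of detected MMP probes differed by 4.67, and the groups overlapped. This difference was lowest, 2.67, with disturbed flow replicate 1 left out, 3.00 with stable flow replicate 2 left out, and highest, 7, with stable flow replicate 1 left out. The 7 TIMP probes gave 6, 4 and 6 against 6, 7 and 5. The 65 ADAM probes gave 11, 6 and 8 against 13, 13 and 8, and the 39 ADAMTS probes 10, 2 and 8 against 8, 8 and 7. Disturbed flow replicate 1, the array with the most MMP probes, was near the highest share over all probes too, 34.7% against 35.0%. Disturbed flow replicate 1 also had the highest normalized log2 intensity of the macrophage lysozyme gene Lyz2, at 8.01 against 4.35 to 5.91 on the other arrays. The summed intensity of the 2 tested macrophage markers, the lysozyme genes Lyz1 and Lyz2, was 47.3 to 154 under stable flow and 58.1 to 580 under disturbed flow. Csf1r, Adgre1, Cd14, C1qa, C1qb and C1qc, the other macrophage markers on the array, were not detected often enough to be tested. The neutrophil marker S100a9 was highest on disturbed flow replicate 1 too, at 9.31. The part of macrophages and neutrophils in the MMP counts was not tested.

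**Figure D1:**
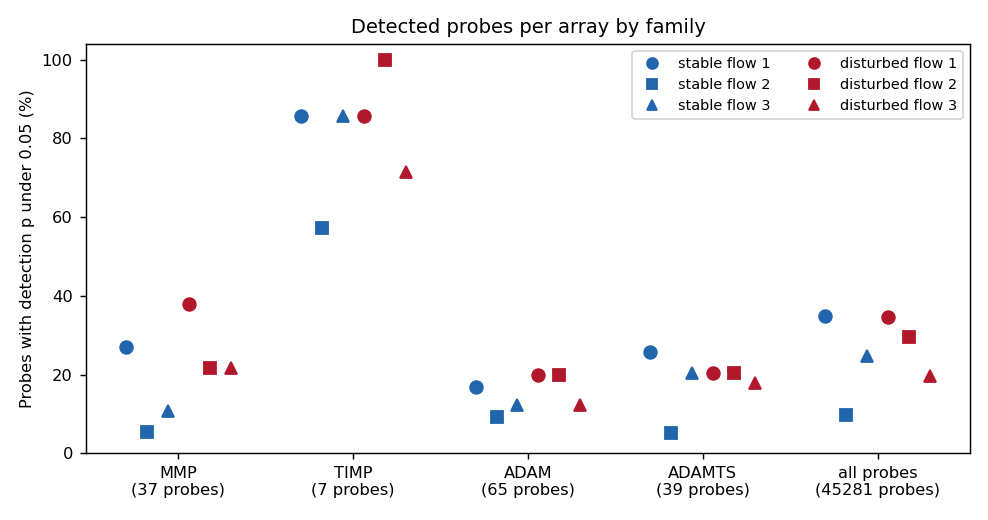
Share of probes with a detection p under 0.05 on each array (vertical axis, percent), for the 4 families and for all probes. Each point is 1 array, blue for stable flow and red for disturbed flow, with the replicate given by the shape. TIMP probes lie highest, and stable flow replicate 2 (blue square) is lowest in every family and over all probes.

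The 35 genes detected on no array included 10 MMPs. These were the stromelysin genes Mmp10 and Mmp11, the macrophage elastase gene Mmp12, the matrilysin gene Mmp7, the enamelysin gene Mmp20, and Mmp1b, Mmp17, Mmp21, Mmp23 and Mmp25. The 18 undetected ADAMs were Adam2 and Adam3, which encode sperm surface proteins, and Adam18, Adam20, Adam21, Adam23, Adam24, Adam25, Adam26a, Adam26b, Adam29, Adam32, Adam33, Adam34, Adam34l, Adam39, Adam6a and Adam6b. The 7 undetected ADAMTSs were the procollagen N-propeptidase genes Adamts3 and Adamts14, and Adamts8, Adamts9, Adamts15, Adamts19 and Adamts20. No detection here means a signal within the range of the negative controls on each array, which does not show that the transcript is absent.

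The 21 genes whose best probe was detected on 1 or 2 arrays were spread over both groups. Over all probes of a gene, 5 genes were seen under stable flow only, 10 under disturbed flow only and 6 under both. The same split over all genes of the array was not counted. Since 5% of probes without any signal are detected on an array, this split is not read as a difference between the groups. Different probes of Mmp16, Mmp28, Adam4 and Adam28 were detected on different arrays, so that each of these genes was seen on 3 arrays in all. Mmp13, the collagenase-3 gene, was detected on disturbed flow replicates 1 and 3, and Mmp3 (stromelysin-1) and Mmp8 (neutrophil collagenase) on disturbed flow replicate 1 alone. The aggrecanase gene Adamts4 was detected on disturbed flow replicate 1 alone, with scanned signals of 105, 83.9 and 93.1 under stable flow and 94.6, 76.9 and 80.4 under disturbed flow. Timp4, the TIMP with the most restricted tissue range, was detected on disturbed flow replicate 2 alone. Adamts13, which cleaves von Willebrand factor, was detected on disturbed flow replicate 3 alone, and Adam8, a protease gene of leukocytes, on disturbed flow replicate 2 alone. The remaining genes of this kind were Mmp16, Mmp19, Mmp28, Adam1b, Adam4, Adam5, Adam7, Adam11, Adam22, Adam28, Adam30, Adamts6, Adamts7 and Adamts18.

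Promoter sequence differed between the detected and the undetected members. RefSeq promoter windows (GRCm38.p6, 250 bases before to 50 after the annotated start) were matched by gene identifier for 45 of the 74 genes. The median count of CpG dinucleotides in a window was 21 for the 12 tested members with a window, 3 for the 10 whose best probe was detected on 1 or 2 arrays and 1 for the 23 never detected. Over all genes of the array the same medians were 21, 15 and 6, in 5637, 3533 and 6037 windows, so the order of the medians is shared with the whole array. The ADAMTS family went against it, with a median of 41 in the 4 never detected and 17 in the 3 tested. Counts are given as a description, since genes of a family are not independent.

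**Figure D2:**
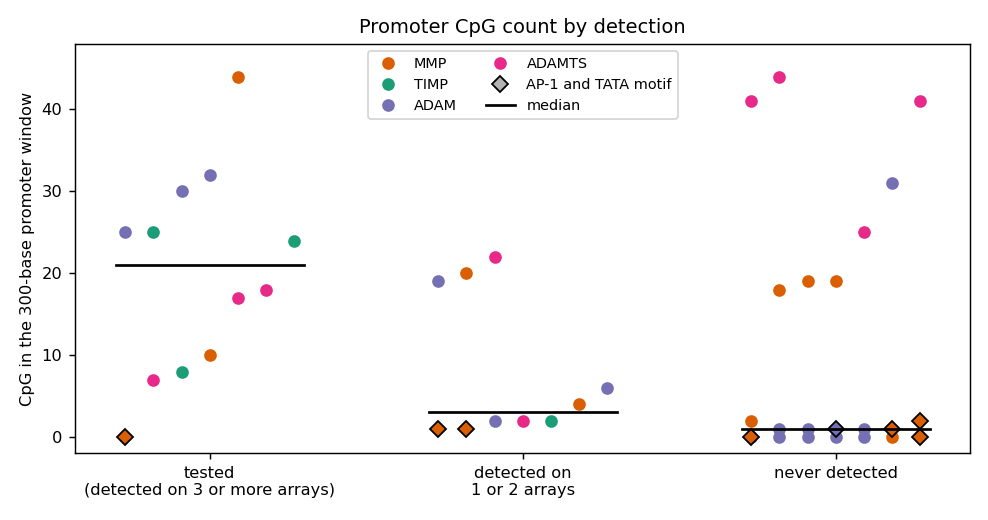
Number of CpG dinucleotides in the 300-base promoter window (vertical axis) of each member with a window, by the number of arrays on which its best probe was detected (horizontal axis). Colours give the family, diamonds mark windows with both an AP-1 and a TATA motif, and bars are medians (21, 3 and 1). Of the 8 diamonds 1, Mmp1a, is among the tested genes.

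A cluster of MMP genes on chromosome 9 carried a shared pair of promoter motifs. The windows of 9 MMP genes lay between positions 7272264 and 7692139 of chromosome 9, a span of 420 kb. The AP-1 motif TGANTCA, which reads the same on both strands, and the TATA motif TATAAA, searched on both strands, occurred together in 7 of these 9 windows (Mmp1a, Mmp1b, Mmp3, Mmp7, Mmp10, Mmp13 and Mmp20) and in 0 of the 7 MMP windows elsewhere. Of all 27025 promoter windows 7.9% held the AP-1 motif, 14.2% the TATA motif and 1.67% both. The 9 cluster windows held 0 to 4 CpG, and the 7 other MMP windows 2 to 44. Of the 9 cluster genes 1 was tested, 3 had a best probe detected on 1 or 2 arrays and 5 had none detected. The stretches below are shown because the motif pair is what these clustered genes share. They are written 5′ to 3′ with the motif letters in capitals, for Mmp1a (chr9:7464031-7464160, plus strand), Mmp3 (chr9:7445712-7445841, plus strand), Mmp10 (chr9:7502232-7502361, plus strand) and Mmp13 (chr9:7272404-7272533, plus strand). A letter match is not evidence of binding.
Mmp1a: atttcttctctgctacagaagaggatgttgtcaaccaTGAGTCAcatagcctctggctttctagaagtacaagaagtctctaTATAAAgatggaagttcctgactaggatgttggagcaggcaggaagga
Mmp3: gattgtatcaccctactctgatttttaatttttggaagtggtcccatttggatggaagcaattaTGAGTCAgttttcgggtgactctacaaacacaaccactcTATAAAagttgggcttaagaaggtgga
Mmp10: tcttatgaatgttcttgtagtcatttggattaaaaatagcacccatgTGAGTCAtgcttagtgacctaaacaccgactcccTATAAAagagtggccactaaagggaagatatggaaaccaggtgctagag
Mmp13: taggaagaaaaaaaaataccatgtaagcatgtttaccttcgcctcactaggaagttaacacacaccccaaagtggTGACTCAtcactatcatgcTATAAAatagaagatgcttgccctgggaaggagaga

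The windows of Timp2 and Timp3, detected on all 6 arrays, are shown for contrast, with CpG dinucleotides in capitals. Timp2 (chr11:118355362-118355661, minus strand) held 25 CpG and Timp3 (chr10:86300162-86300461, plus strand) 24, and neither held the AP-1 or the TATA motif as spelled here.
Timp2: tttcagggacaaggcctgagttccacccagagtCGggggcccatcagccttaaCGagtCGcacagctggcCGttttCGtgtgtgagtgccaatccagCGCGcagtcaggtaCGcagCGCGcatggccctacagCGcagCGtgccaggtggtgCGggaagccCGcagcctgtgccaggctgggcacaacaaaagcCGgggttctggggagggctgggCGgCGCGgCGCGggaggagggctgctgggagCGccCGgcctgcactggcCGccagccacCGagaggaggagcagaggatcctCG
Timp3: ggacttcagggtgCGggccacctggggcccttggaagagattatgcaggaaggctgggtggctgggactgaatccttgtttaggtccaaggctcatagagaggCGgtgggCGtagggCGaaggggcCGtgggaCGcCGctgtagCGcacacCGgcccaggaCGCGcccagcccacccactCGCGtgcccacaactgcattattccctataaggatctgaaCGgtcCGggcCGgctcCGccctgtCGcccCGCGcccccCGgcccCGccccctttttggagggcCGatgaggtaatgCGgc

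No member was found to differ between the described groups. Signals were corrected for background and normalized by quantiles. They were then taken to log2, where an added offset of 16 sets a lower limit of 4, and tested with limma over all 12546 tested probes. Of the 29 member probes 0 passed an adjusted p under 0.05, against 0% of all tested probes, and 0 had an unadjusted p under 0.05, against 2.69%. With the detection filter removed, 11 of all 148 member probes had an unadjusted p under 0.05, against 2097 of all 45281 probes, and 0 passed the adjusted threshold. Differences of the 18 genes ran from -1.10 to 1.06, with 13 above 0 and 5 below, and 57.4% of all tested probes were above 0. The median difference was 0.14 for the MMPs, 0.23 for the TIMPs, 0.26 for the ADAMs and 0.23 for the ADAMTSs, against 0.10 over all tested probes. Over the 18 genes the median was 0.23. With stable flow replicate 2 left out it was 0.06, against -0.01 over all tested probes. Groups did not overlap for 3 of the 29 probes, a share near the 9.68% of all tested probes. The median standard error over the 18 genes was 0.52, and simulated log2 changes of 1 were recovered in 0.4% of cases and of 2 in 23.6%, so changes of this size can be missed. In bulk RNA of this kind, fewer cells of a type and less RNA per cell cannot be told apart.

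**Figure D3:**
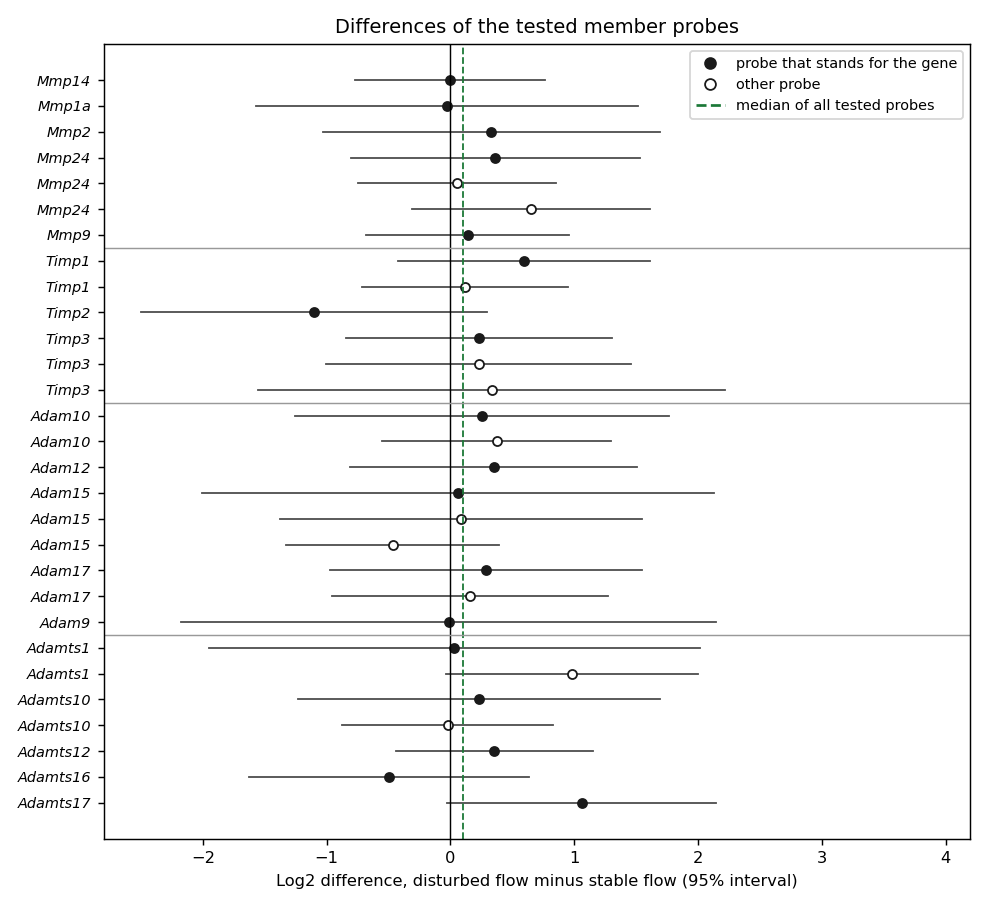
Log2 difference, disturbed flow minus stable flow, of the 29 tested member probes (horizontal axis) with 95% intervals from limma, grouped by family from MMPs at the top to ADAMTSs at the bottom. Filled points stand for their gene, open points are its other probes, and the dashed line is the median of all tested probes (0.10). All 29 intervals include 0.

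Among the inhibitors, Timp2 had the lowest difference of all 18 genes. TIMP-2 inhibits MMPs and, together with the membrane-anchored MMP encoded by Mmp14, takes part in activating the gelatinase MMP-2. Its log2 intensity was 10.60, 8.43 and 9.82 under stable flow, and 8.20, 8.24 and 9.10 under disturbed flow. The groups overlapped through stable flow replicate 2, which lay below disturbed flow replicate 3. The scanned Timp2 signal of stable flow replicate 2 was 116, against 2042 and 1114 on the other stable flow arrays. Under disturbed flow the scanned signals were 408 to 507. The means were 9.62 ± 1.10 and 8.51 ± 0.50 (SD, n = 3 each), a difference of -1.10 (SE 0.60, limma adjusted p = 0.890). The difference was -0.61 without stable flow replicate 1 and -1.70 without stable flow replicate 2, and scaling to a common 75th percentile gave 0.02. The 95% interval was -2.50 to 0.29.

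Timp3, whose product binds to the matrix, was measured by 3 probes. The brightest had 9.72, 9.14 and 8.30 under stable flow and 9.02, 9.73 and 9.09 under disturbed flow. Its groups overlapped widely, with a difference of 0.23 (SE 0.46) that was -0.15 without stable flow replicate 3. The brightest probe differed by 1.27 after 75th percentile scaling, and by 1.06 with no normalization between arrays. The other Timp3 probes gave 0.23 and 0.33. Timp1, a soluble inhibitor induced by growth factors and cytokines, had 4.54, 4.85 and 4.98 against 5.37, 4.69 and 6.09. The Timp1 difference was 0.59 (SE 0.43, limma adjusted p = 0.890). It was 0.24 without disturbed flow replicate 3, its highest array after normalization, and 0.20 without background correction. The other Timp1 probe gave 0.12 and was detected on 2 arrays of each group.

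**Figure D4:**
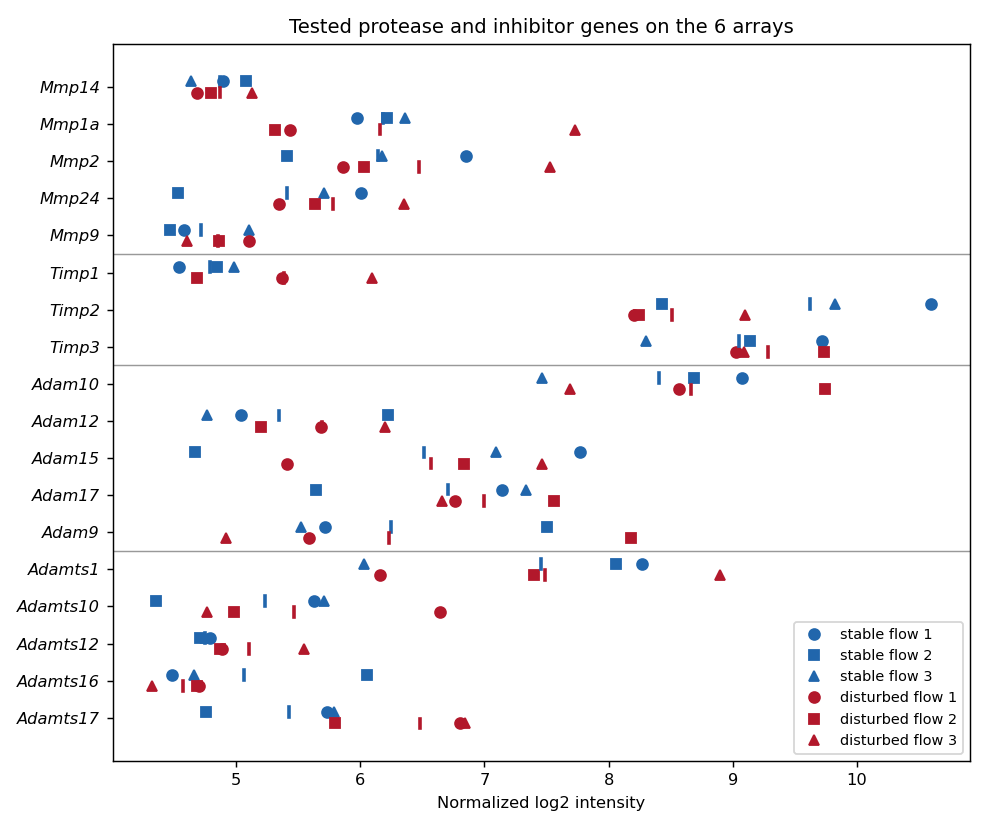
Normalized log2 intensity (horizontal axis) of the 18 tested genes, each by the probe that stands for it, grouped by family. Each point is 1 array, blue for stable flow and red for disturbed flow, the shape gives the replicate and the upright bars are group means. Levels of different probes are not comparable with each other. Timp2 spans 8.20 to 10.60 and its groups overlap, while those of Adamts12 and Adamts17 do not.

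Neither gelatinase gene separated the groups. Mmp2, a gelatinase gene of fibroblasts and smooth muscle, had 6.85, 5.41 and 6.17 under stable flow and 5.86, 6.03 and 7.53 under disturbed flow, and was detected on 5 of the 6 arrays. The difference was 0.33 (SE 0.58). It was -0.20 without disturbed flow replicate 3, the highest array after normalization, and -0.04 without stable flow replicate 2, the lowest. Cyclic loess gave -0.05. The scanned Mmp2 signal was highest on stable flow replicate 1, at 318 against 147 on disturbed flow replicate 3. Mmp9, the gelatinase gene of leukocytes and activated vascular cells, had 4.58, 4.47 and 5.11 against 5.11, 4.86 and 4.60, and was detected on 2 arrays of each group. Its difference was 0.14 (SE 0.35, 95% interval -0.68 to 0.96).

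The membrane-anchored MMPs showed no separation of the groups either. Mmp14, which encodes the main collagenase of the cell surface, had 4.90, 5.08 and 4.64 under stable flow and 4.69, 4.80 and 5.13 under disturbed flow. Its difference was -0.0013 (SE 0.33), with 1 array of stable flow and 3 of disturbed flow above background. Mmp24, another membrane-type MMP gene, differed by 0.36 (SE 0.50), and by -0.08 without stable flow replicate 2, and its other probes gave 0.05 and 0.65. Mmp1a, the interstitial collagenase gene of rodents whose promoter is shown above, was detected on all 6 arrays by the probe that stands for it. Its other probes were detected on 0 arrays. After normalization the detected probe had 5.98, 6.22 and 6.36 against 5.44, 5.31 and 7.73, so disturbed flow held both its lowest and its highest arrays. In scanned signal stable flow replicate 1 was the highest, at 217 against 161 on disturbed flow replicate 3. The Mmp1a difference was -0.03 (SE 0.66), and it was -0.81 when disturbed flow replicate 3 was left out and 0.40 when replicate 2 of that group was.

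The sheddase genes Adam10 and Adam17 were measured on most arrays. Adam10, whose product cleaves Notch receptors and the endothelial cadherin, had 9.08, 8.69 and 7.46 under stable flow and 8.56, 9.74 and 7.69 under disturbed flow. After normalization replicate 3 was the lowest array of both groups. In scanned signal stable flow replicate 2 was the lowest of its group, at 123 against 876 and 272. The Adam10 difference was 0.26 (SE 0.64), which became -0.22 with stable flow replicate 3 out, or -0.28 with disturbed flow replicate 2 out. Scaling to a common 75th percentile gave 1.16, and no normalization between arrays 0.95. The other Adam10 probe gave 0.37. Adam17, which encodes the enzyme that releases tumour necrosis factor, had 7.14, 5.64 and 7.33 against 6.76, 7.56 and 6.66. Its difference was 0.29 (SE 0.54), and -0.25 without stable flow replicate 2, the lowest array. The other Adam17 probe gave 0.16.

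The remaining tested ADAMs varied more within groups than between them. Adam15, a disintegrin gene of endothelium and smooth muscle, ran from 4.67 on stable flow replicate 2 to 7.77 on stable flow replicate 1, and from 5.41 to 7.46 under disturbed flow. Its 3 probes gave differences of 0.06, 0.08 and -0.47, and the first was -0.86 without stable flow replicate 2. Adam9 had 5.72, 7.50 and 5.52 against 5.59, 8.18 and 4.92, a difference of -0.02 (SE 0.92). Adam12, a gene of mesenchymal cells and myoblasts, differed by 0.35 (SE 0.49), and by 0.06 without stable flow replicate 3. None of these 3 genes had an unadjusted p under 0.05 in limma.

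The ADAMTS family held the highest differences and the 3 probes whose groups did not overlap. Adamts17, a gene linked in humans to short stature and displacement of the eye lens, had 5.73, 4.76 and 5.79 under stable flow and 6.81, 5.80 and 6.85 under disturbed flow. All disturbed flow arrays lay above all stable flow arrays, narrowly so at the nearest pair. The means were 5.43 ± 0.58 and 6.48 ± 0.59 (SD, n = 3 each), a difference of 1.06 (SE 0.46, limma unadjusted p = 0.054, adjusted p = 0.890). With single arrays left out, the lowest difference was 0.73 (stable flow replicate 2 out) and the highest 1.40 (disturbed flow replicate 2 out). It was 0.44 without background correction, 0.58 with no normalization between arrays, 0.61 with cyclic loess and 0.69 with array weights. Groups that do not overlap with disturbed flow higher were found for 5.68% of all tested probes.

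Adamts1, which encodes a secreted protease of versican and aggrecan, gave values that depended on the probe. The brighter probe, detected on all 6 arrays, had 8.27, 8.06 and 6.03 under stable flow and 6.16, 7.40 and 8.90 under disturbed flow, with a difference of 0.03 (SE 0.84). Dropping replicate 3 of stable flow gave -0.68, and dropping that of disturbed flow gave -0.67. Scaling to a common 75th percentile gave 0.93, and no normalization between arrays 0.72. The other tested probe had 5.81, 5.00 and 5.41 against 5.87, 6.22 and 7.08, with every disturbed flow array above every stable flow array. Its difference was 0.98 (SE 0.44, limma unadjusted p = 0.057, adjusted p = 0.890), and 0.41 without background correction. After normalization the highest array of both probes was disturbed flow replicate 3. The lowest was stable flow replicate 3 for the first and stable flow replicate 2 for the second. In scanned signal, stable flow replicate 1 was highest (589 and 203) and stable flow replicate 2 lowest (109 and 93.3) for both probes.

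Adamts12, a gene of matrix-producing cells, had 4.79, 4.71 and 4.75 under stable flow and 4.89, 4.87 and 5.55 under disturbed flow. The groups did not overlap, but the difference of 0.35 (SE 0.34, limma adjusted p = 0.890) was 0.13 without disturbed flow replicate 3, and 1 array of stable flow was above background. Adamts10, whose product binds fibrillin, differed by 0.23 (SE 0.62) on 1 probe and by -0.02 on another, and the first value was -0.36 without disturbed flow replicate 1. Adamts16 had the lowest difference of the family, -0.50 (SE 0.48), and -0.0038 without stable flow replicate 2, its highest array after normalization. The scanned Adamts16 signal of that array was 97.1, against 115 and 108 on the other stable flow arrays.

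**Figure D5:**
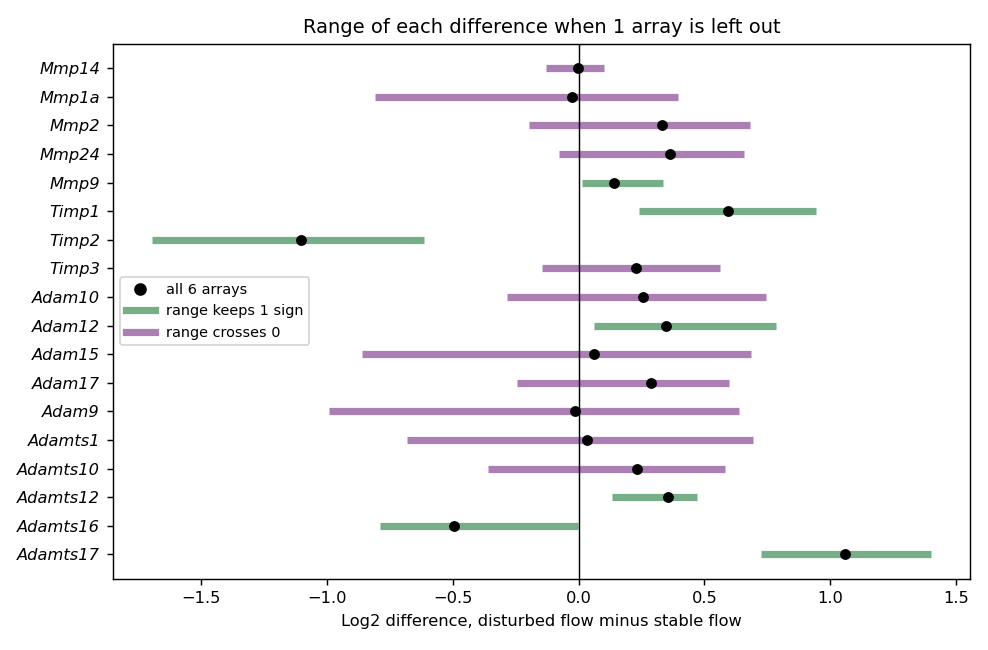
Log2 difference of each of the 18 tested genes (points, all 6 arrays) with the range over the 6 fits that leave out 1 array (bars). Green bars keep 1 sign and purple bars cross 0. The range of Timp2 lies from -1.70 to -0.61 and that of Adamts17 from 0.73 to 1.40.

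When single arrays were left out, 7 of the 18 genes kept their sign, namely Mmp9, Timp1, Timp2, Adam12, Adamts12, Adamts16 and Adamts17. The other 11 turned sign in at least 1 of the 6 fits. The MMP median was -0.13 with disturbed flow replicate 3 out and -0.01 with stable flow replicate 2 out. The TIMP median was -0.15 with stable flow replicate 3 out, and the ADAM median -0.07 with disturbed flow replicate 2 out. The ADAMTS median was lowest, 0.13, without disturbed flow replicate 3 and highest, 0.47, without replicate 2 of that group, and was -0.03 with no normalization between arrays. The MMP median was -0.05 with cyclic loess, -0.18 with no normalization between arrays and -0.06 with array weights.

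Genes that activate, anchor or inhibit these proteases, or turn over matrix beside them, were not found to differ. Of 40 listed genes, 36 were on the array, 18 were tested and 0 passed in either direction, with a median difference of -0.05, 8 values above 0 and 10 below. The median was -0.15 with stable flow replicate 2 out and 0.16 with stable flow replicate 1 out. Plau, the urokinase plasminogen activator gene, had 4.92, 4.55 and 4.29 under stable flow and 5.46, 5.46 and 5.15 under disturbed flow. It was the only gene of this list whose groups did not overlap, with a difference of 0.77 (SE 0.34, limma unadjusted p = 0.054, adjusted p = 0.890), and 1 array of stable flow was above background. Groups that did not overlap were found for 9.68% of all tested probes. The Plau difference was 0.25 without background correction. Serpinf2, which encodes the plasmin inhibitor alpha-2-antiplasmin, had a difference of -0.70 (SE 0.48), and -0.21 without stable flow replicate 2.

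Known substrates of the families gave a like picture. Of 34 listed genes, 17 were tested and 0 passed in either direction, with a median of 0.11. That median was -0.21 with stable flow replicate 2 out and 0.42 with stable flow replicate 1 out. Cd44, a hyaluronan receptor shed by ADAM10, was the only one whose groups did not overlap, with 4.69, 4.24 and 4.43 under stable flow and 5.99, 5.12 and 4.94 under disturbed flow (difference 0.90, SE 0.39, limma adjusted p = 0.890). It is named because of this, after its values were seen. Of all tested probes 9.68% had groups that did not overlap. Cd44 was above background on 1 array of stable flow and 2 of disturbed flow. The smallest p in each direction belonged to fibrillar collagen genes. Col3a1 differed by 2.11 (SE 0.90, limma unadjusted p = 0.050, adjusted p = 0.890), the only gene of the list with an unadjusted p under 0.05. It had 4.46, 4.28 and 5.01 under stable flow and 6.97, 4.62 and 8.48 under disturbed flow, so the groups overlapped. Col3a1 was above background on 1 array of stable flow and 2 of disturbed flow. Its difference was 1.21 with disturbed flow replicate 3 out and 3.14 with disturbed flow replicate 2 out. Col1a1 differed by -0.39 (SE 0.41), and by -0.65 with stable flow replicate 3 out and -0.03 with stable flow replicate 1 out.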

How the data were processed

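The families and gene lists were proposed with earlier results of these data known, although the rule for members reads only symbols. The deposited table holds, per the file headers, 1 signal intensity per probe and array, not normalized between arrays, and beside it a detection p-value against negative controls. Per the submitters' processing notes the software was GenomeStudio 2011.1, and no source used here gives its settings. A second deposited table gives the authors' processed intensity values on a linear scale with 36.0% to 36.5% below 0 and column medians of 2.50 to 2.62. How it was made is not stated, and it served as an alternative. Arrays were grouped by the sample descriptions.

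Intensities were normalized with neqc (limma 3.58.1, R 4.3.3), and 12546 probes detected (p under 0.05) on 3 or more arrays were tested by two-sided moderated tests (lmFit, eBayes) on the log2 values computed from the deposited intensities, adjusted by Benjamini and Hochberg. The tested probe with the highest mean stands for its gene. Symbols came from the platform annotation (34885 probes with 1 symbol, 18 with several, 10378 unnamed here), and all 74 member symbols matched RefSeq by identifier. The fit was tested on simulated data (200 changed probes, 20 runs). Named genes are a fixed vessel wall set, all tested members, and the gene with the smallest p in each direction in each family and in 2 related lists. Of the fixed set, Adamts5 was not analysed here. Of several annotated starts the most upstream was used. Probe sequences were not used here. The number of arrays limits the precision.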

Additional observations from a re-analysis of the deposited data

How the results depend on the processing

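No member probe passed under any setting tried, and the alternatives listed here turned signs without a call; the cause was not tested. Without background correction, differences were -0.042 for Adam15, 0.081 for Adam9, 0.00011 for Mmp14 and 0.079 for Mmp1a. With scaling to a common 75th percentile, differences were -0.23 for Adam15, 0.78 for Adam9, 0.029 for Adamts16, 0.036 for Mmp1a, -0.027 for Mmp24 and 0.022 for Timp2. With cyclic loess, differences were -0.56 for Adam15, -0.067 for Adam17, 0.58 for Adam9, 0.022 for Adamts16, -0.045 for Mmp2 and -0.12 for Mmp24. With no normalization between arrays, differences were -0.44 for Adam15, 0.57 for Adam9, -0.065 for Adamts10, -0.032 for Adamts12, -0.0061 for Mmp2, -0.24 for Mmp24 and -0.0028 for Mmp9. With array weights, differences were -0.71 for Adam15, -0.046 for Adam17, 0.85 for Adam9, 0.057 for Mmp14, -0.090 for Mmp2 and -0.055 for Mmp24. With the authors' processed table under its own column names, differences were -0.27 for Adam10, -0.64 for Adam12, -0.31 for Adam15, -0.38 for Adam17, 0.17 for Adam9, -0.037 for Adamts1, -1.10 for Adamts10, -0.73 for Adamts12, 1.55 for Adamts16, -1.51 for Adamts17, 0.16 for Mmp1a, -0.42 for Mmp2, -0.79 for Mmp24, -0.54 for Mmp9, -1.10 for Timp1, 1.13 for Timp2, -0.24 for Timp3, -4.002 for Col3a1, 0.71 for Col1a1, -2.47 for Plau, 2.93 for Serpinf2 and -1.35 for the other Adamts1 probe. With its columns given to the array of the same rank order, 1 of 23 named values turned sign, 0.015 for Mmp14. Under its own column names 22 of 23 turned. The values of both settings are equal with opposite sign, since only the group names change. Under the table's own column names the family medians were -0.42 for MMPs, -0.24 for TIMPs, -0.31 for ADAMs, -0.73 for ADAMTSs and -0.35 for all 4 families. Over probes detected on all 6 arrays the family median was -0.44 for TIMPs. Leaving out 1 array at a time gave -0.28 to 0.75 for Adam10, -0.86 to 0.69 for Adam15, -0.25 to 0.60 for Adam17, -0.99 to 0.64 for Adam9, -0.68 to 0.69 for Adamts1, -0.36 to 0.58 for Adamts10, -0.13 to 0.10 for Mmp14, -0.81 to 0.40 for Mmp1a, -0.20 to 0.68 for Mmp2, -0.079 to 0.66 for Mmp24, -0.15 to 0.56 for Timp3. Same-numbered samples of the groups did not deviate together (correlations -0.035, -0.074 and -0.085, against -0.064 to 0.114 for the other combinations). With 3 samples a group this cannot exclude pairing, under these or other numbers. The labels state no pairs, so the numbers are not taken as pairs. With the replicate number as a block 0 probes were called, 329 had an unadjusted p under 0.05 (338 without it) and 0 named genes turned sign. The slide as a block could not be fitted. Without the detection filter 2097 of 45281 probes had an unadjusted p under 0.05, against 15 of 12546 with no normalization between arrays, and 0 passed in either. Of the 29 member probes 1 had an unadjusted p under 0.05 with array weights, with the replicate block and in 4 of the 6 fits that leave out 1 array. Of all 12546 tested probes 658 did so with array weights, 329 with the replicate block and 310 to 594 in those 4 fits. Low signal limits the values in all 4 families, since some tested probes were above background on only 1 or 2 arrays of a group.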

Other observations

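Isolated bright signals on 1 array were seen for 2 untested probes. A probe of Mmp28 had a scanned signal of 339 on disturbed flow replicate 2 and 79.8 to 102 on the other arrays. A probe of Adamts6 had 341 on the same array and 75.1 to 117 on the others. After normalization Adam9 was highest on replicate 2 of both groups, at 7.50 and 8.18 on the log2 scale, with 4.92 to 5.72 on the other 4 arrays. In scanned signal this held for disturbed flow only, with 389 on replicate 2 against 127 and 86.5. Stable flow replicate 2 had a scanned signal of 103, the lowest of its group, against 194 and 127.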
